A study of Sinocyclocheilus angustiporus and Sinocyclocheilus anophthalmus with 4 samples.

Results

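The genes described here are those of the core transcription loop of the circadian clock that could be found by name in RNA sequencing of whole eyes from a surface fish and a cavefish. They are the rows whose names contain the terms for period, clock homolog, circadian locomotor, neuronal PAS domain or aryl hydrocarbon receptor nuclear translocator-like (BMAL) genes, which gave 9 of 9585 different gene names. The surface fish was Sinocyclocheilus angustiporus and the cavefish Sinocyclocheilus anophthalmus, both sampled as adults; the genus belongs to the carps and lives in fresh waters of China. The comparison sets the eye of a cave species beside that of a surface species. Life in darkness and other differences between the species cannot be told apart in it. Each eye was 1 library; the labels mention 2 individuals per species without saying how they entered a library, and they give no genotype, treatment or hour of sampling. The series has 4 libraries, and the 2 of brain were not analysed here. No difference below therefore has a replicate check, an error between animals or a p-value.

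The vertebrate clock is a loop that takes about a day to complete. In the positive arm, a BMAL protein pairs with CLOCK or with its close relative NPAS2, and the pair binds E-box elements in DNA and activates transcription. Among the activated genes are the period and cryptochrome genes, whose proteins form the negative arm: they accumulate, enter the nucleus and hold the activating pair back until they are degraded. In fish the eye and most other tissues keep such clocks of their own, and light can set them directly; per2 is the period gene best known in zebrafish for its induction by light.

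The search found 3 period rows, per1b, per2 and per3, which form the negative arm here. It found 5 rows of the positive arm: npas2, arntl1a, arntl1b, arntl2 and a row named as BMAL with no paralog letter, called arntl below. The ninth row was npas4, a transcription factor gene that neurons switch on when they are active and that is not a part of the clock loop. A row named only clock lay outside the search terms and is given beside the members. No value was matched for per1a. Symbols are those of zebrafish genes with the same name, and paralog letters follow the names in the tables without any check of sequence. Values are RPKM, reads scaled to transcript length and library size by the authors, so that levels of different genes share a scale. The sources do not say how reads shared by related rows, such as the BMAL rows, were divided. The tables hold only rows whose larger value is at least 5 RPKM. Both values reached this in 8 members, while npas4 is in the tables through the surface fish eye only and had to be the lower in the cave species.

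Both eye libraries were close in total, at 684736 RPKM in the surface species and 665574 RPKM in the cave species, but the typical gene was lower in the cave species. The median log2 ratio of all genes, taken as log2((cavefish RPKM + 1) / (surface fish RPKM + 1)), was -0.27, and 68.8% of genes had a ratio below 0. A gene was counted as lower or higher when this log2 ratio passed -1 or 1, which is 2-fold. The added 1 understates differences of low genes. Exact folds given beside RPKM values are quotients of RPKM without the added 1, so they can exceed the log2 ratio beside them. Where a value is called centred, the median of all genes was subtracted.

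Of the members, per1b and per3 had the widest gap between the eyes. The per1b row stood at 36.5 RPKM in the surface species and 11.2 RPKM in the cave species, 3.26-fold lower and a log2 ratio of -1.62. The per3 row was nearly its twin, at 34.8 and 11.3 RPKM, 3.09-fold lower and a log2 ratio of -1.54. Both encode repressors of the loop. The third, per2, was less abundant in the surface species and differed less: it stood at 13.1 and 7.10 RPKM, with a log2 ratio of -0.80, within 2-fold. All 3 period rows were thus lower in the cave species, and their summed level was 84.4 RPKM against 29.6 RPKM, a 2.86-fold difference. In whole eyes, fewer cells of a type and less RNA per cell cannot be told apart; the markers of cell types are given after the members.

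The rank of the period genes within their own library can be read without a scale between libraries. It does not remove differences between the species in how reads matched each gene, since the reference used for mapping is not stated. In the surface fish eye, per1b was more abundant than 83.9% of all genes and per3 more abundant than 82.9%. In the cavefish eye these shares were 55.3% and 55.5%, near the middle of the table. For per2 the share was 53.9% in the surface species and 32.8% in the cave species. By log2 ratio, only 254 of the 9585 genes were lower in the cave species than per1b, and 296 were lower than per3, whereas 1508 were lower than per2.

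Within the period family, per1b and per3 kept their proportion and per2 did not. The ratio of per1b to per3 was 1.05 in the surface species and 0.99 in the cave species. The ratio of per1b to per2 was 2.78 and 1.58, and that of per3 to per2 was 2.65 and 1.59. In both eyes per2 was therefore the scarcest of the 3, by a smaller margin in the cave species.

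**Figure D1:**
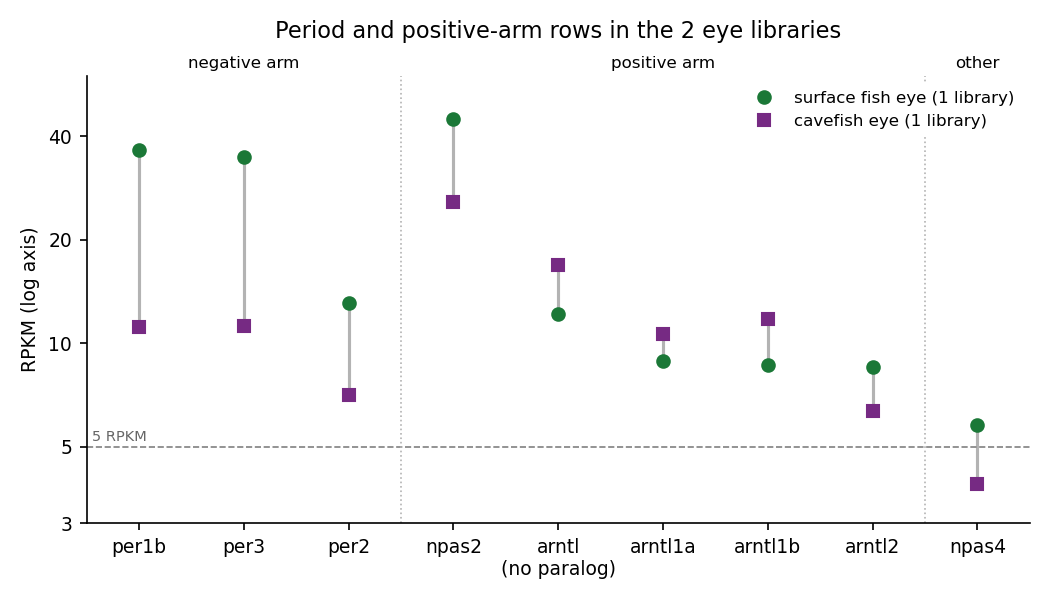
Levels of the 9 members in each eye library, in RPKM on a log axis; circles are the surface fish eye, squares the cavefish eye, and each point is 1 library, with the lower limit of the tables dashed at 5 RPKM. The 3 period rows lie lower in the cave species, with per1b at 11.2 RPKM and per3 at 11.3 RPKM, while the arntl, arntl1a and arntl1b rows lie slightly higher.

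The rows of the positive arm lay on both sides of 0. Of the 5 rows, none was past 2-fold in either direction, and their median log2 ratio, without the clock row, was 0.23. Of the BMAL rows, which encode the partner that CLOCK and NPAS2 need, 3 of 4 were higher in the cave species. The arntl row stood at 12.1 RPKM in the surface species and 16.9 RPKM in the cave species (log2 ratio 0.44). The arntl1b row stood at 8.67 and 11.8 RPKM (0.40), and arntl1a at 8.88 and 10.6 RPKM (0.23). The fourth, arntl2, a second BMAL gene, stood at 8.51 and 6.35 RPKM (log2 ratio -0.37), close to the median of all genes. Together the BMAL rows summed to 38.2 RPKM in the surface species and 45.6 RPKM in the cave species.

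The most abundant member in both eyes was npas2, the partner of BMAL that can stand in for CLOCK. It stood at 44.8 RPKM in the surface species and 25.7 RPKM in the cave species (log2 ratio -0.78), which is within 2-fold and close to that of per2. The row named clock was less abundant, at 13.6 and 10.6 RPKM (log2 ratio -0.34). The npas2 row was thus 3.29 times the clock row in the surface species and 2.43 times in the cave species. The plan placed clock rows in the positive arm, but the search terms did not reach the row named clock. With this row added, after the values were seen, the median of the arm was -0.052 in place of 0.23. Without centring, the sign of that median thus depends on which rows are counted, and both values were above the median of all genes, -0.27. The summed BMAL rows were higher and npas2 lower in the cave species: npas2 was 1.17 times the sum of the BMAL rows in the surface species and 0.56 times in the cave species. The remaining member, npas4, had the lowest level of the 9 in both eyes, at 5.77 and 3.90 RPKM (log2 ratio -0.47).

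The order of the members therefore differed between the eyes. In the surface fish it ran npas2, per1b, per3, per2, arntl, arntl1a, arntl1b, arntl2 and npas4. In the cavefish it ran npas2, arntl, arntl1b, per3, per1b, arntl1a, per2, arntl2 and npas4. With 1 library per eye no spread is known, so neighbours such as per1b and per3, or arntl1a, arntl1b and arntl2 in the surface species, cannot be ordered with any confidence.

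Of the 9 members, 2 were lower by 2-fold or more in the cave species and 0 higher by 2-fold or more, with 7 within 2-fold. Over all genes, 10.2% were lower by 2-fold or more and 3.84% higher by 2-fold or more. The median log2 ratio was -0.58 over the 8 clock members and -0.27 over all genes, and that of the period rows alone was -1.54. With npas4, which had to be the lower in the cave species, the median of the 9 was the value of npas4 itself, -0.47. After centring, 5.55% of all genes were 2-fold lower and 6.76% higher. The centred log2 ratios were -1.35 for per1b and -1.27 for per3, still past 2-fold, -0.53 for per2 and -0.51 for npas2. They were 0.71 for arntl, 0.67 for arntl1b and 0.51 for arntl1a, and the arntl2 and clock rows came to -0.10 and -0.07. Each member kept its sign under the 4 other scalings tried. All 4 moved the ratios up by a similar step, so the rows already above 0 could not have changed sign.

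**Figure D2:**
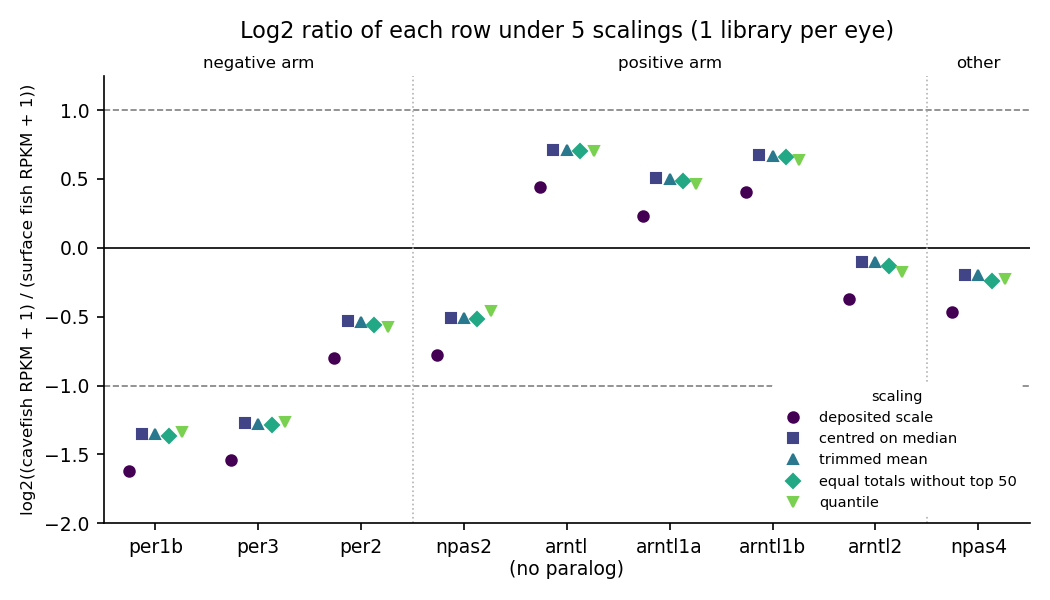
Log2 ratio of cavefish to surface fish for each member on the deposited scale and under the 4 other scalings, with 2-fold dashed; each point comes from 1 library per eye. The scalings shift all members up by a similar step, per1b and per3 stay below -1, and the arntl, arntl1a and arntl1b rows stay above 0.

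The balance of the period and BMAL rows can be read inside each library, where no scaling between libraries enters. Differences between the species in how reads matched each gene would remain. The summed period rows were 2.21 times the summed BMAL rows in the surface species and 0.65 times in the cave species, a 3.41-fold difference. Taken row by row, the 3 period and 4 BMAL rows give 12 pairs. In the surface fish eye the period row was the higher in 12 of 12 pairs, with ratios from 1.08 to 4.29. In the cavefish eye it was the higher in 5 of 12, with ratios from 0.42 to 1.77. These pairs reuse the same 7 rows and are not independent. Ratios close to 1 cannot be placed on either side of it with any confidence. In the cavefish eye these include per1b to arntl1a at 1.05 and per1b to arntl1b at 0.95, so the count of 5 is uncertain. The ratio was lower in the cave species in 12 of 12 pairs. This count adds nothing to the member values, where each period row had a lower cavefish-to-surface ratio than any BMAL row. Set against the 5 positive-arm rows, npas2 included but clock left out, the summed period rows were 1.02 times in the surface species and 0.41 times in the cave species. With the clock row, the positive arm summed to 96.6 RPKM in the surface species and 81.8 RPKM in the cave species. These sums were above the period sums of 84.4 and 29.6 RPKM in both eyes. The period sums leave out the cryptochromes, the other part of the negative arm. Rows named as cryptochromes summed to 204 RPKM in the surface species and 148 RPKM in the cave species, above the positive arm in both eyes. Which arm was the more abundant thus depends on whether the cryptochrome rows are counted. Without them, the order in the surface species also depends on whether the clock row is counted.

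**Figure D3:**
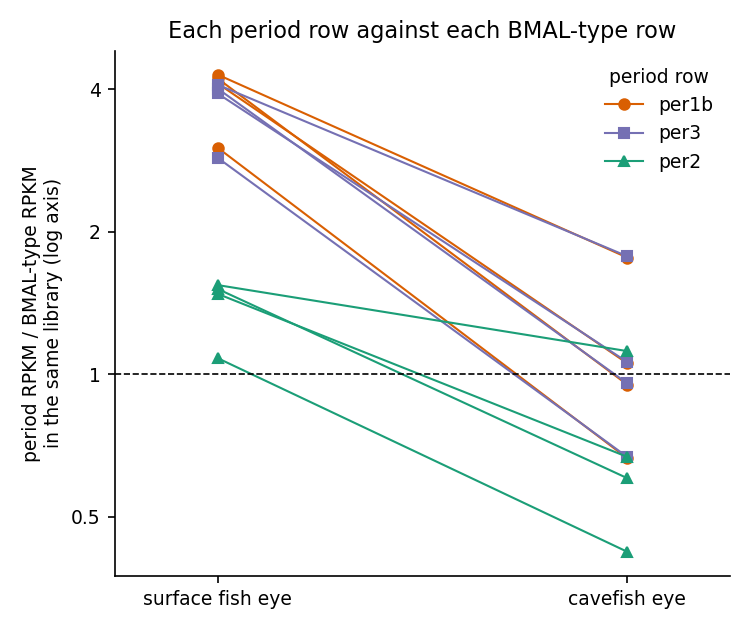
Ratio of each period row to each of the 4 BMAL rows within 1 library, on a log axis, with lines joining the surface fish eye to the cavefish eye. The 12 ratios lie above 1 in the surface species, and 5 of them do so in the cave species, where several lie close to 1.

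The hour of sampling is not given in the labels. Period and BMAL transcripts are known to peak at different times of day in fish and mammals, so with 1 library per species a difference of hour and a difference of species cannot be told apart.

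Markers of the cell types of the eye also differed between the libraries. Of 7 rod markers, such as rhodopsin and the rod transducin gene, 7 were lower by 2-fold or more in the cave species, with a summed level of 18712 RPKM in the surface species and 6232 RPKM in the cave species. Of 7 cone markers 6 were 2-fold lower, with sums of 4048 and 1226 RPKM. No marker was at 0 in either eye, but no other gene was either, so this does not set the markers apart. The summed period rows came to 4.51 per 1000 RPKM of rod markers in the surface species and 4.74 in the cave species. Per 1000 RPKM of cone markers they came to 20.8 and 24.1. The period sum was thus lower in a proportion near that of the rod markers and near that of the cone markers. It was 2.86-fold lower, and the sum of the erythrocyte markers, listed below, was 3.35-fold lower. The match is one of sums, since per2 was 1.85-fold lower, beside 3.26-fold for per1b and 3.09-fold for per3. The BMAL rows came to 2.04 and 7.32 per 1000 RPKM of rod markers, and to 9.44 and 37.2 per 1000 RPKM of cone markers. The 5 inner retina markers summed to 161.8 and 193.8 RPKM with none past 2-fold, but they went both ways, with 3 of 5 lower and log2 ratios from -0.37 to 0.995. Per 1000 RPKM of these, the BMAL rows came to 236.1 and 235.3 and the period rows to 521.5 and 152.5. The 3 pigment epithelium markers summed to 320.2 and 304.3 RPKM with none past 2-fold. Per 1000 RPKM of these, the BMAL rows came to 119.3 and 149.8 and the period rows to 263.6 and 97.1. The part of these marker differences in the period result was not tested. Among the other marker lists, 5 of 5 cornea and skin epithelium markers (sums of 1005 and 111 RPKM) and 3 of 4 erythrocyte markers (1670 and 498.7 RPKM) were 2-fold lower. By the same measure, 5 of 7 skeletal muscle markers (687.3 and 1815 RPKM) and 3 of 8 lens markers (7851 and 8230 RPKM) were higher. The 3 Mueller glia markers summed to 211.8 and 207.7 RPKM, but 1 of them was 2-fold lower and their log2 ratios ran from -1.28 to 0.80.

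Around the core loop, 45 further clock genes had a value. Of these, 7 were lower by 2-fold or more in the cave species, 1 was higher by 2-fold or more and 37 were within 2-fold, and their median log2 ratio was -0.47. These are 15.6% lower and 2.22% higher, beside 10.2% and 3.84% of all genes. After centring, 3 were 2-fold lower and 1 was higher, or 6.67% and 2.22%, beside 5.55% and 6.76% of all genes, so that the share of lower genes was near that of all genes. Of the 45 genes, 5 are in the tables through 1 eye only, 4 of them through the surface fish.

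Cryptochrome proteins of the clock repress the activating pair together with the period proteins. The rows here were grouped by name, and whether each encodes such a repressor was not checked. Of 6 cryptochrome rows 1 was 2-fold lower, the row for cry2 at 61.0 RPKM in the surface species and 26.1 RPKM in the cave species (log2 ratio -1.19); centred, this was -0.92, within 2-fold. The most abundant of them, cryptochrome 2a, stood at 70.5 and 68.7 RPKM (log2 ratio -0.04). The summed cryptochrome level was 1.38-fold lower, beside 2.86-fold for the period rows. The cryptochrome 1b and 5 rows are in the tables through the surface fish eye only and had to be the lower in the cave species. The other 4 ratios were below 0 as well, but centred, the cryptochrome 2a and 2b rows came to 0.23 and 0.0022.

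The second loop of the clock sets the level of BMAL: REV-ERB receptors, encoded by nr1d genes, repress BMAL transcription and ROR receptors activate it. Of 5 nr1d rows, nr1d2a was the most abundant in the surface species and was past 2-fold. It stood at 200.5 and 49.8 RPKM, 4.03-fold lower (log2 ratio -1.99). The other 4 had ratios above 0 and within 2-fold, up to 0.62, so that nr1d2a stood alone among the 5. The summed nr1d level was 278.2 RPKM in the surface species and 156.3 RPKM in the cave species. Of 5 ror rows, all had ratios below 0, and 1 was past 2-fold: rorc, at 8.35 and 2.43 RPKM, which is in the tables only through the surface fish eye and came within 2-fold with a pseudocount of 5 in place of 1. The abundant rorb, also a factor of photoreceptor development, stood at 60.4 and 39.3 RPKM (log2 ratio -0.61). After centring, roraa came above 0, so that the shared direction of the ror rows does not hold on that scale.

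D-box factors include output regulators of the clock, with DBP, TEF and HLF as activators and NFIL3 as their competitor. Of 9 such rows 1 was past 2-fold, nfil3-6, at 63.4 and 16.5 RPKM (log2 ratio -1.88). The most abundant, hlfa, stood at 133.7 and 131.9 RPKM (log2 ratio -0.02). Of the 2 DEC repressor genes, which compete with the activating pair for E-boxes, bhlhe40 stood at 118.4 and 64.5 RPKM (log2 ratio -0.87), within 2-fold.

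Among 14 genes for kinases and turnover of clock proteins, 2 were past 2-fold, both rows of the deubiquitinating enzyme gene usp2. The usp2 row stood at 15.6 and 6.74 RPKM and the usp2a row at 20.9 and 9.01 RPKM, log2 ratios of -1.10 and -1.13; both came within 2-fold after centring, and they may share reads. The casein kinase subunit gene csnk2b stood at 57.5 and 45.4 RPKM (-0.33). The gene fbxl3a, whose product marks cryptochromes for degradation, stood at 44.8 and 35.0 RPKM (-0.34). The single row grouped here as an input to the clock, creb1, a factor that passes cAMP and calcium signals to period genes in mammals, had a log2 ratio of 0.06. Rows grouped under other roles may act as inputs as well.

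The melatonin enzymes, an output of the clock in photoreceptors, gave the only row of the 45 past 2-fold in the higher direction. The row for arylalkylamine N-acetyltransferase with no paralog number, called aanat, stood at 10.9 RPKM in the surface species and 26.0 RPKM in the cave species (log2 ratio 1.18); with a pseudocount of 5 it came within 2-fold. The row aanat1 stood at 137.2 and 63.8 RPKM (log2 ratio -1.09), and came within 2-fold after centring. The enzyme asmt, which makes melatonin in the last step, had a log2 ratio of -0.54. The 2 aanat rows thus differed in opposite directions, and their sum was dominated by aanat1.

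**Figure D4:**
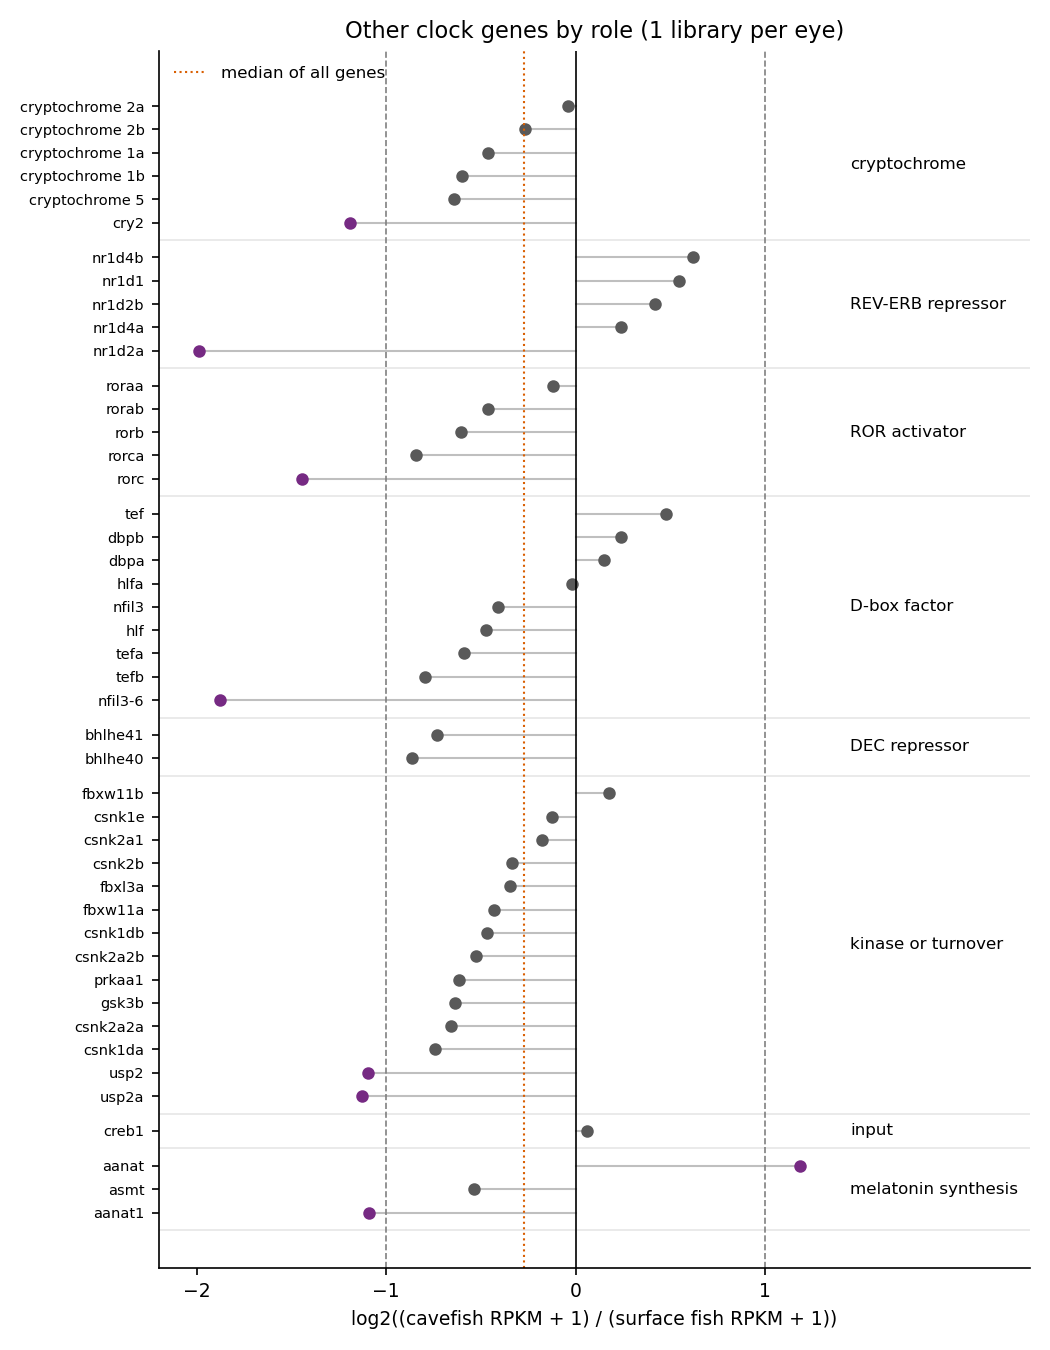
Log2 ratio of cavefish to surface fish for 45 other clock genes grouped by role, from 1 library per eye, with 2-fold dashed and the median of all genes, -0.27, dotted; purple points are past 2-fold. The nr1d2a and nfil3-6 rows lie farthest to the left, the other 4 nr1d rows lie right of 0, and aanat is the row past 2-fold on the right.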

How the data were processed

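RNA of whole adult eyes was selected for polyadenylated transcripts and sequenced as paired ends on 1 of 2 Illumina platforms, per the labels' protocols; which library ran on which is not stated, so platform and species cannot be told apart. Per the file headers, the authors deposited RPKM, in 9649 rows per table. The submitters' processing notes name Bowtie 0.12.2; the reference and the treatment of shared reads are not stated. The larger value of each row was 5 RPKM at least, so genes of few reads in both eyes are not in the tables, whole reads were not recovered, and the depth is unknown. Of 9585 names, 64 were on more than 1 row; the row with the largest sum was used. Log2 ratios used a pseudocount of 1. With 1 library per eye no test was made. Members were found by name, and promoter motifs were not searched. The members and lists were chosen with earlier results of these data known. Of 55 listed clock symbols and their paralogs, 45 genes were matched by name. Named were all members, other clock genes past 2-fold, and the 6 within 2-fold with the largest sums; the clock row, roraa, asmt, creb1 and the cryptochrome 1b, 2b and 5 rows were named after their values were seen. The computation was tested on simulated data. Alternatives were other pseudocounts, a filter, 4 scalings, other thresholds and summed rows. Python 3.11.15, numpy 2.4.6, pandas 2.3.3 and matplotlib 3.10.9 were used.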

Additional observations from a re-analysis of the deposited data

How the results depend on the processing

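The lower per1b and per3 values stayed past 2-fold in the 8 alternatives that give them, at -1.70 to -1.34 and -1.62 to -1.26. Each member kept its sign wherever it had a value. Other pseudocounts cannot change a sign, and the 4 scalings moved all members up by a similar step. Without centring, the median of the positive arm reversed to -0.052 when the clock row was added, still above the median of all genes, -0.27. In the order centring, trimmed mean, equal totals without the 50 most abundant genes, and quantile normalization, the median of all genes was 0, -0.0055, -0.020 and -0.023. In the same order, the members' median was -0.19, -0.20, -0.24 and -0.23, that of the period rows -1.27, -1.28, -1.29 and -1.26, and that of the positive arm 0.51, 0.50, 0.49 and 0.46. The median of the other clock genes was -0.19, -0.20, -0.20 and -0.15, with 3 genes 2-fold lower under each. All genes 2-fold lower numbered 532, 539, 563 and 559, and those higher 648, 640, 621 and 595. With a pseudocount of 5, the period median was -1.29, 4 other clock genes were lower and 0 higher, and 517 of all genes were lower and 173 higher. Without genes under 10 RPKM in both eyes, which leaves out arntl2 and npas4, the members' median was -0.78, and without npas4 alone, a choice made after the values were seen, it was -0.58. At 1.5-fold, 4 members were lower, other clock genes numbered 19 lower and 2 higher, and all genes 2569 and 886. At 4-fold, 0 members were lower, 0 other clock genes were lower or higher, and all genes numbered 124 and 58. The nr1d2a row fell just short of this threshold, at a log2 ratio of -1.99 with the added 1. The shifts follow from the alternatives' construction. No paired analysis was possible because each eye had 1 library.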
